A study of Mus musculus with 12 samples.

Results

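The Zscan4 genes of the mouse form a cluster of near-identical copies on chromosome 7. They were taken here as the rows named Zscan4a to Zscan4f, whose counts were read by Ensembl gene identifier. Of these 6 genes, 5 had a row among the 39179 genes of the count table: Zscan4b, Zscan4c, Zscan4d, Zscan4e and Zscan4f. Zscan4a was not analysed here. Total RNA of mouse embryonic stem cells was sequenced after removal of ribosomal RNA, in 12 libraries and 4 groups. BRE-negative and BRE-positive cells (3 libraries each) carried the genotype BRE-GFP, a green fluorescent reporter of BMP signalling, on a strain background given as mixed CBA and C57Bl/6. They grew in fetal calf serum with Lif on feeder cells, were sorted by flow cytometry for SSEA1, a stem cell surface antigen, and for GFP, and were collected as 3 pairs. The Smad1/5 fl/fl cells (FL, 2 libraries) carried intact floxed alleles of Smad1 and Smad5, which encode transducers of BMP signals, and the Smad1/5 -/- cells (KO, 4 libraries) are labelled as lacking both genes. FL and KO cells shared a background of mixed CD-1, 129/Ola and C57Bl/6 and a culture in 2i with Lif on gelatin, without feeders or a sort. They came from 2 parental lines, with 1 FL and 2 KO libraries from each, but the labels do not tie the libraries to the lines.

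Zscan4 proteins join a SCAN domain, which pairs proteins with one another, to zinc fingers that bind DNA. The genes are switched on in the embryo at the 2-cell stage, when the zygotic genome is first transcribed, and most embryonic stem cells keep them silent. In culture, a small share of cells passes through a transient state in which Zscan4 and other genes of the 2-cell embryo are transcribed, and Zscan4 is known for a role in telomere lengthening and genome stability there. In bulk RNA of the kind measured here, fewer cells in that state and less Zscan4 RNA per cell cannot be told apart.

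The copies are so alike that a sequenced fragment often fits several of them, which is why single rows and their sum are both given. The window below, 60 bases of the coding strand in GRCm38, shows this: capitals mark the 7 positions at which the 5 counted copies differ, and Zscan4b and Zscan4e are the same throughout. This window was picked for the most differing positions among ungapped coding windows, so no other such window differs at more. It lies at chr7:10901620-10901679 (minus strand) in Zscan4b, chr7:11009111-11009170 (plus) in Zscan4c, chr7:11162747-11162806 (minus) in Zscan4d, chr7:11307249-11307308 (minus) in Zscan4e and chr7:11401304-11401363 (plus) in Zscan4f.
Zscan4b: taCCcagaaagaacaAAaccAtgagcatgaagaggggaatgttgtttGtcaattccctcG
Zscan4c: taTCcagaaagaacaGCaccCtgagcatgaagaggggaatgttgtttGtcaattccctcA
Zscan4d: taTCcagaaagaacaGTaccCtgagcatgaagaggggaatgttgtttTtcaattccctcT
Zscan4e: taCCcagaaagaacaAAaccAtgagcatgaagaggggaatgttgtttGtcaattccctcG
Zscan4f: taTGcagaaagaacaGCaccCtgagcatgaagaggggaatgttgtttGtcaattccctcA

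Over their whole aligned transcripts, the counted copies were 96.6% to 99.7% identical. Zscan4b and Zscan4e differed at 5 of 1722 aligned bases, and Zscan4c and Zscan4f at 9 of 1806. Zscan4d had no such close partner: it was 96.6% (Zscan4b) to 97.8% (Zscan4f) identical to the other copies, with 61 differences of 2270 aligned bases to Zscan4c. Copies of the former pair were 97.2% to 97.7% identical to those of the latter, so Zscan4d was about as far from each pair as they were from each other. Of the 50-base windows of each transcript, 50.4% were found in no other GENCODE transcript for Zscan4d, 14.5% for Zscan4c, 9.7% for Zscan4b, 8.4% for Zscan4e and 4.7% for Zscan4f. The sources used here do not give the read length or the treatment of reads that fit several copies, so the division of counts among the copies is uncertain and the sum is the firmer quantity, although it too may lack reads.

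In GENCODE M21 (GRCm38), Zscan4a to Zscan4f span 608.1 kb of chromosome 7, from position 10794242 to 11402318. The annotation holds 9 Zscan4 genes, namely Zscan4a to Zscan4f and Zscan4-ps1 to Zscan4-ps3, of which 5 were counted. Zscan4-ps2 and Zscan4-ps3 lie beyond the end of the span at Zscan4f. Zscan4b (ENSMUSG00000095339) lies at chr7:10900740-10905050 on the minus strand, and Zscan4c (ENSMUSG00000054272) at chr7:11005745-11010547 on the plus strand. Zscan4d (ENSMUSG00000090714) lies at chr7:11161374-11166159 (minus), Zscan4e (ENSMUSG00000095936) at chr7:11306378-11310682 (minus) and Zscan4f (ENSMUSG00000070828) at chr7:11397915-11402318 (plus). The deposited annotation calls Zscan4e an unprocessed pseudogene, whereas GENCODE M21 calls it protein coding. Another 3 counted genes inside the span had 0 counts over all 12 libraries.

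**Figure D1:**
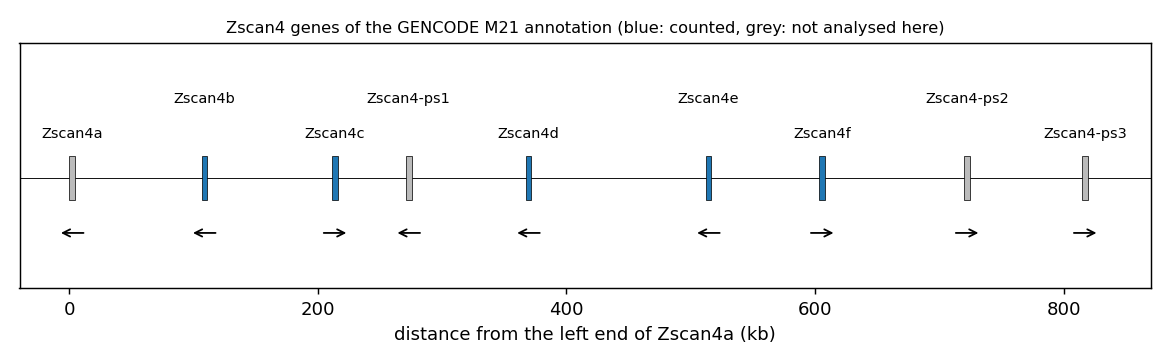
Map of the annotated Zscan4 genes along chromosome 7, with the distance from the start of the cluster in kb on the x axis; arrows give the strand, blue genes were counted and grey genes were not analysed here. The 5 counted copies, Zscan4b to Zscan4f, lie within the 608.1 kb from Zscan4a to Zscan4f, on both strands.

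The sequence before the start sites is shared as well. RefSeq promoter windows of GRCm38.p6 (250 bases upstream of each start) were matched for 4 members, Zscan4b, Zscan4c, Zscan4d and Zscan4f, and were 94.7% to 99.6% identical. Zscan4c and Zscan4f, the closest pair, differed at 1 aligned base. The stretches below, 120 bases in the direction of transcription, are the matching part of each promoter, and capitals mark the motifs TATAAA and CCAAT. They lie at chr7:10905062-10905181 (minus strand) for Zscan4b, chr7:11005591-11005710 (plus) for Zscan4c, chr7:11166194-11166313 (minus) for Zscan4d and chr7:11397784-11397903 (plus) for Zscan4f.
Zscan4b: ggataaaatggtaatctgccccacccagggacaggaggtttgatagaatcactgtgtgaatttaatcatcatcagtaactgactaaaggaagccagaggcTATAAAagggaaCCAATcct
Zscan4c: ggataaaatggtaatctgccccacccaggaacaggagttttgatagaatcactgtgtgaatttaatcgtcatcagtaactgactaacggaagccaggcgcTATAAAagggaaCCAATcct
Zscan4d: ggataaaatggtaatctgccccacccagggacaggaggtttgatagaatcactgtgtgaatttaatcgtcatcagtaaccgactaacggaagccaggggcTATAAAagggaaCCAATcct
Zscan4f: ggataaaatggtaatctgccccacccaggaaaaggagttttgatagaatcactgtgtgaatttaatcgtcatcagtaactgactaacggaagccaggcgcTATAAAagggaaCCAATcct

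TATAAA began 31 bases upstream of the annotated start in Zscan4b and Zscan4f, 54 bases upstream in Zscan4c and 65 bases upstream in Zscan4d. CCAAT began 19, 19, 42 and 53 bases upstream in the same order. Both strands were searched, and the motifs do not overlap. Of 32851 promoter windows of the same length, 12.4% held TATAAA and 33.8% held CCAAT, against 4 of 4 Zscan4 windows for each. A pair of further motifs was searched on both strands and found in 0 of the 4 Zscan4 windows: GGCGCC, a site type bound by SMAD1 and SMAD5 (9.59% of all windows), and TGCACAC, a site type bound by ZSCAN4 (3.67%). A match is a match of letters, and its absence says only that these letters are not in these windows.

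The libraries held 25862573 to 37319846 counts in genes. Levels are given as CPM (gene counts scaled to a common library total) over library sizes scaled by TMM, whose factors ran from 0.971 to 1.029. Summed levels of 8 stem cell markers were 4220 to 5010 CPM in BRE-negative, 4280 to 4550 in BRE-positive, 5080 to 5130 in FL and 4040 to 5040 in KO libraries, and all 8 were detected in each group. Smad1 counts were 643 and 665 in FL libraries against 427, 619, 489 and 373 in KO libraries, and Smad5 counts were 1136 and 1153 against 880, 893, 1176 and 1046. Neither passed the test between KO and FL (edgeR adjusted p = 0.187 and 0.719), and these counts do not check the labels, since the sources used here do not say which exons were removed.

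Zscan4 RNA was highest in FL cells, about 9-fold lower in KO cells, and near or at 0 in both sorted BRE groups. The summed Zscan4 counts were 1709 and 2019 in FL libraries 1 and 2. They were 215, 67, 273 and 180 in KO libraries 1 to 4. They were 0, 17 and 12 in BRE-negative libraries 1 to 3, and 0, 22 and 11 in BRE-positive libraries 1 to 3. Every FL library thus lay above every KO library, and every KO library above every BRE library. How many of all genes have the latter gap was not counted.

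On the CPM scale, the sum was 50.5 and 55.2 in FL libraries (52.9 ± 3.27, SD, n = 2). It was 7.31, 1.89, 7.53 and 5.94 in KO libraries 1 to 4 (5.67 ± 2.62, SD, n = 4). The lowest FL library was 6.71-fold above the highest KO library, and the ratio of the means was 9.32. The FL libraries differed from each other by 1.09-fold, whereas the highest and the lowest KO library differed by 3.98-fold. KO library 2 was the low one: its exact 95% Poisson interval of 1.47 to 2.4 CPM, which covers counting error alone, did not meet those of the other KO libraries, the lowest of which was 5.1 to 6.87 CPM in KO library 4. The sum in the BRE groups was 0.32 ± 0.287 CPM for BRE-negative libraries and 0.334 ± 0.302 CPM for BRE-positive libraries (SD over 3 libraries).

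**Figure D2:**
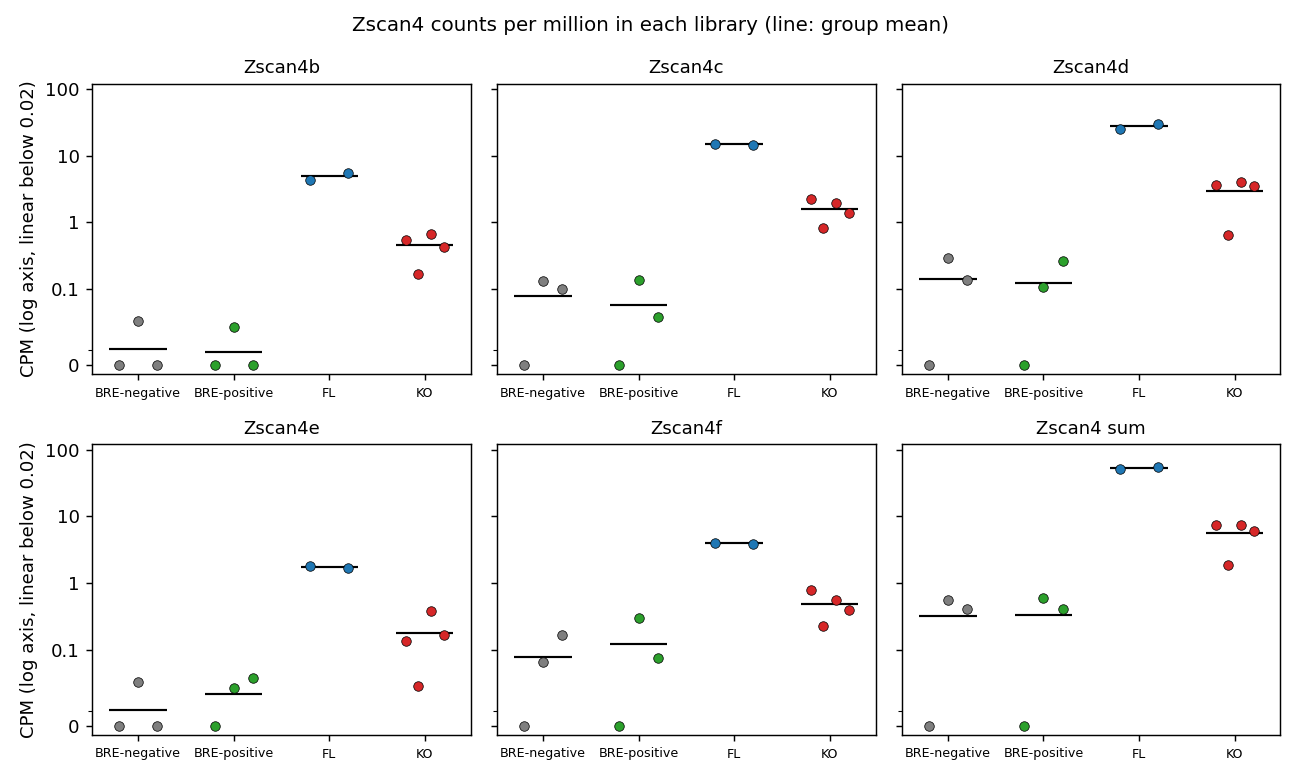
Level of the 5 Zscan4 rows and of their sum in each of the 12 libraries, in CPM, by group; each point is 1 library. The 2 FL libraries sit at 50.5 and 55.2 CPM for the sum, the 4 KO libraries at 1.89 to 7.53 and the 6 BRE libraries at 0 to 0.588.

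All 5 copies fell in KO relative to FL cells. Zscan4d, the copy with the most counts, had 856 and 1093 in FL libraries and 106, 23, 145 and 108 in KO libraries, or 25.3 and 29.9 CPM against 3.61, 0.65, 4 and 3.56 CPM. It was 9.35-fold lower in KO (log2 fold change -3.22 ± 0.49, SE; edgeR quasi-likelihood test, Benjamini-Hochberg adjusted p = 0.0162). Zscan4c counts were 512 and 524 in FL libraries and 66, 29, 70 and 42 in KO libraries, or 15.1 and 14.3 against 2.25, 0.819, 1.93 and 1.39 CPM. It was 9.24-fold lower (log2 fold change -3.21 ± 0.31, adjusted p = 0.00638 by edgeR). For both copies the groups did not overlap, and KO library 2 was the lowest of all 6.

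Zscan4b counts were 146 and 199 in FL libraries and 16, 6, 24 and 13 in KO libraries, or 4.32 and 5.44 against 0.544, 0.169, 0.662 and 0.429 CPM. Its fall was 10.7-fold (log2 fold change -3.43 ± 0.38, adjusted p = 0.00799 by edgeR). Zscan4f counts were 134 and 142 in FL libraries and 23, 8, 20 and 12 in KO libraries, or 3.96 and 3.88 against 0.782, 0.226, 0.552 and 0.396 CPM. It fell 8.04-fold (log2 fold change -3.01 ± 0.37, adjusted p = 0.00981 by edgeR). Zscan4e, the copy with the fewest counts, had 61 in each FL library and 4, 1, 14 and 5 in KO libraries, or 1.8 and 1.67 against 0.136, 0.0282, 0.386 and 0.165 CPM. It fell 9.38-fold (log2 fold change -3.23 ± 0.56, adjusted p = 0.0221 by edgeR). The 5 log2 fold changes ran from -3.43 to -3.01, with overlapping intervals of 1 SE, and that of the summed counts was -3.22 ± 0.40.

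Of the 15933 genes tested between KO and FL, 5.03% were called in either direction, 3.18% were called lower, and 1.02% were called and over 4-fold lower, against 5 of 5 Zscan4 rows for each. Every KO library lay below every FL library for 16.8% of genes, and for 5 of 5 Zscan4 rows. Ordered by log2 fold change from the lowest, the rows ranked 22 (Zscan4b), 40 (Zscan4e), 42 (Zscan4d), 45 (Zscan4c) and 62 (Zscan4f). The rows share sequence and possibly reads, so they are not 5 independent observations. The calls, unlike the size of the difference, rest on both FL libraries. Without FL library 1, edgeR called 0 of 16580 genes, with 1948 at an unadjusted p under 0.05. The 5 rows then had log2 fold changes of -3.57 to -2.98 and adjusted p of 0.0595 to 0.156. Without FL library 2, Zscan4d (adjusted p = 0.0752) and Zscan4e (0.0907) were not called, and without KO library 4 Zscan4e was not called (0.0671, all by edgeR).

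**Figure D3:**
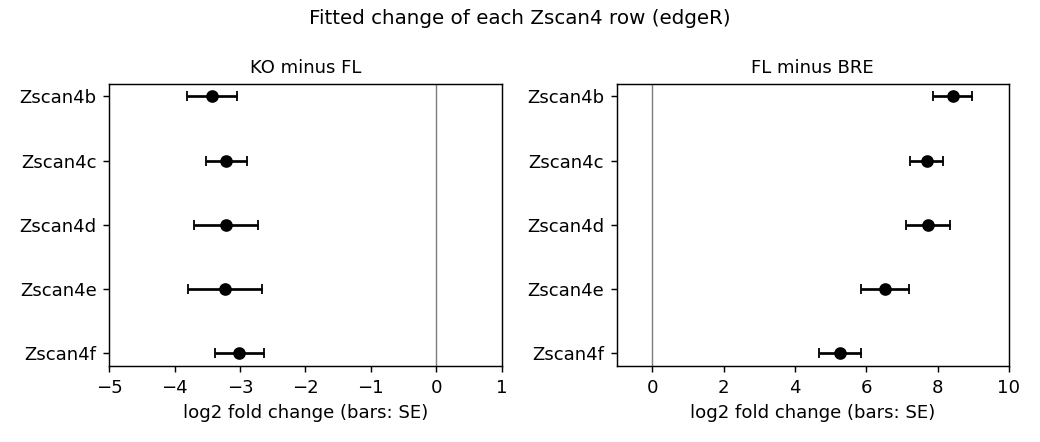
Log2 fold change of each Zscan4 row, for KO minus FL and for FL minus BRE, with bars of 1 SE from the edgeR fits. KO minus FL values lie between -3.43 and -3.01, and FL minus BRE values between 5.25 and 8.42, with the low BRE counts behind the latter.

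The shares of the 5 copies in the Zscan4 counts had overlapping intervals in FL and KO cells. Zscan4d held 52.3% of 3728 Zscan4 counts in FL (95% Wilson interval 50.7% to 53.9%) and 52.0% of 735 in KO (48.4% to 55.6%). Zscan4c held 27.8% and 28.2%, Zscan4b 9.3% and 8.0%, Zscan4f 7.4% and 8.6%, and Zscan4e 3.3% in both. These intervals cover counting error alone. KO library 2, the lowest in level, was also the 1 library of the 6 in which Zscan4c (43.3%, 32.1% to 55.2%) held more counts than Zscan4d (34.3%, 24.1% to 46.3%), on 67 counts. In the BRE groups, the 62 Zscan4 counts gave Zscan4d 38.7% (27.6% to 51.2%) and Zscan4f 32.3% (22% to 44.6%). With BRE libraries pooled, Zscan4f thus had a larger share than in FL, where its interval was 6.6% to 8.3%, and 11 of its 20 BRE counts came from BRE-positive library 2. Single libraries were mixed. Its interval lay above that of FL in BRE-negative library 3 (19.3% to 68.0%) and BRE-positive library 2 (30.7% to 69.3%). It included that of FL in BRE-negative library 2 (3.3% to 34.3%) and BRE-positive library 3 (5.1% to 47.7%).

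To order the copies by level, counts were divided by transcript length. In FL cells, on the scale of CPM per kb of GENCODE exon, the level was 12.1 ± 1.43 for Zscan4d, 6.46 ± 0.249 for Zscan4c, 2.71 ± 0.439 for Zscan4b, 2.0 ± 0.0289 for Zscan4f and 0.968 ± 0.0513 for Zscan4e (SD, n = 2). In the deposited TPM the order was Zscan4d (21.3 ± 2.69), Zscan4c (17.8 ± 0.495), Zscan4b (7.72 ± 1.34), Zscan4e (3.21 ± 0.134) and Zscan4f (0.909 ± 0.00283). Zscan4e and Zscan4f exchanged places because the deposited TPM use a length of 11985 bases for Zscan4f, 6.12 times its GENCODE exon length of 1959 bases. In KO cells, deposited TPM were 2.28 for Zscan4d, 1.91 for Zscan4c, 0.748 for Zscan4b, 0.38 for Zscan4e and 0.117 for Zscan4f, in the same order as in FL. Counts per 100-base window unique to the copy gave another order in FL, with Zscan4c (1.75) above Zscan4f (1.52), Zscan4d (1.27), Zscan4b (0.964) and Zscan4e (0.467). The order of the copies therefore changed with the length used.

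In the sorted BRE cells no difference in Zscan4 was detectable at this depth. In pair 1 both libraries had 0 Zscan4 counts, with exact 95% Poisson upper limits of 0.102 CPM (BRE-negative) and 0.115 CPM (BRE-positive). In pair 2 the sum was 17 counts in BRE-negative and 22 in BRE-positive cells (0.556 and 0.588 CPM), and in pair 3 it was 12 and 11 counts (0.404 and 0.413 CPM). The members of a pair thus lay closer to each other than the pairs did. None of the 5 rows passed the filter on low counts, and 2.97% of the 15435 genes tested were called in either direction. Without the filter, log2 fold changes of BRE-positive minus BRE-negative ran from -0.41 ± 1.35 (Zscan4c) to 0.73 ± 2.41 (Zscan4e), with adjusted p of 0.85 to 0.996 (edgeR). For the summed counts the value was 0.08 ± 0.44.

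FL cells in 2i had far more Zscan4 RNA than BRE cells in serum. The 6 BRE libraries together held 2 counts of Zscan4b, 13 of Zscan4c, 24 of Zscan4d, 3 of Zscan4e and 20 of Zscan4f, against 345, 1036, 1949, 122 and 276 in the 2 FL libraries. The ratio of the pooled levels was 472 for Zscan4b (exact 95% counting interval 130 to 3910), 218 for Zscan4c (127 to 411), 222 for Zscan4d (149 to 347), 111 for Zscan4e (37.2 to 547) and 37.7 for Zscan4f (24 to 62.7). For the sum it was 164 (128 to 215). In the edgeR fit of all 12 libraries the 5 rows were called higher in FL, with adjusted p of 6.88e-08 (Zscan4b), 4.79e-08 (Zscan4c), 3.89e-07 (Zscan4d), 3.87e-06 (Zscan4e) and 9.28e-06 (Zscan4f). Since 55% of the 17112 genes tested were called, 28.7% higher and 26.3% lower, a call in this comparison is common. Every FL library lay above every BRE library for 31.5% of genes. Culture, strain, reporter and sorting all differ between the groups and cannot be told apart.

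KO cells, although low against FL, still lay above BRE cells: the lowest KO library was 3.22-fold above the highest BRE library, and the mean of the KO sum was 17.4 times that of the BRE sum. The share of all genes with every KO library above every BRE library was not counted, so how common such a gap is cannot be said. Genotype, culture, strain, reporter and sorting all differ between KO and BRE cells. Feeder fibroblast markers (10 genes) summed to 69.6 to 156 CPM in BRE-negative, 43.4 to 133 in BRE-positive, 8.96 to 13.6 in FL and 6.86 to 10.2 in KO libraries, with Lum and Postn at 0 in all KO libraries. Primitive endoderm markers (6 genes) summed to 69.3 to 110 CPM in BRE-negative, 78.5 to 115 in BRE-positive, 35.5 to 51 in FL and 36.9 to 65.4 in KO libraries, and none was at 0 throughout a group. Trophectoderm markers (5 genes) summed to 33.9 to 40.7, 32.6 to 42.2, 12.2 to 23.5 and 10.2 to 16.3 CPM in the same order, with Elf5 at 0 in all BRE-positive libraries. The endoderm sum was mostly Lama1, at a mean of 86.7 CPM in BRE, 39 in FL and 41.1 in KO libraries. Gata4 had 1.96, 1.71 and 1.05 CPM in the same order. Of the trophectoderm markers, Krt8 had 22.2, 7.29 and 5.65 CPM, while Eomes had 4.48, 4.73 and 3.98 CPM. In FL minus BRE, edgeR called 4 of 6 endoderm and 2 of 3 tested trophectoderm markers lower and 0 higher. Of all genes, 26.3% were lower. Such sums follow their highest genes and do not count cells. The part of these cell types in the differences in Zscan4 was not tested. Between KO and FL, 0 of 6 primitive endoderm and 0 of 3 tested trophectoderm markers passed the test, and 1 of 4 tested feeder markers did (Loxl1, an enzyme that crosslinks collagen, -1.71 ± 0.34, adjusted p = 0.0338 by edgeR, lost without any 1 library other than KO library 1).

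Most listed genes of the 2-cell-like state fell together with Zscan4. Of a list of 40 such genes without the Zscan4 rows, 36 had a row and 32 were tested between KO and FL. Of these, 24 were called lower and 0 higher, where 3.18% of all genes were called lower. The median log2 fold change was -2.82 over the 32, against 0.01 over all genes tested. The list was drawn up with earlier results of these data known, so its direction is not independent evidence. The 8 that did not pass had adjusted p of 0.0592 to 0.9 (edgeR) and went both ways, up to a log2 fold change of 1.03. Mean CPM in FL and KO was 124 ± 52.8 and 138 ± 70.7 for Usp26, but 2.57 ± 0.7 and 1.32 ± 0.194 for Pramef6 (SD). The 24 called lower had log2 fold changes of -3.86 to -2.46. The 3 with the smallest p were BC080695 (15.5 ± 4.38 CPM in FL, 1.46 ± 0.64 in KO), AA792892 (3.77 ± 0.352 and 0.457 ± 0.192) and Pramef25 (9.76 ± 2.77 and 1.09 ± 0.471, SD). Their log2 fold changes were -3.41 ± 0.39, -3.03 ± 0.35 and -3.16 ± 0.38, with adjusted p of 0.00799, 0.00806 and 0.00893 by edgeR.

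The counts of these 24 genes followed the same order of libraries as Zscan4 in the KO group. The genes were picked as called lower in KO, so the gap between their FL and KO sums was fixed by that choice. Summed, the counts were 3800 and 5930 in FL libraries 1 and 2, and 605, 223, 871 and 583 in KO libraries 1 to 4, with KO library 2 again the lowest. In the BRE groups they were 23, 49 and 51 in BRE-negative and 5, 30 and 44 in BRE-positive libraries 1 to 3. Pair 1, which had 0 Zscan4 counts, was thus the lowest for these genes as well. Of the 24 genes, 0 were called without FL library 1, 3 without FL library 2, 17 without KO library 3 and 16 without KO library 4.

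**Figure D4:**
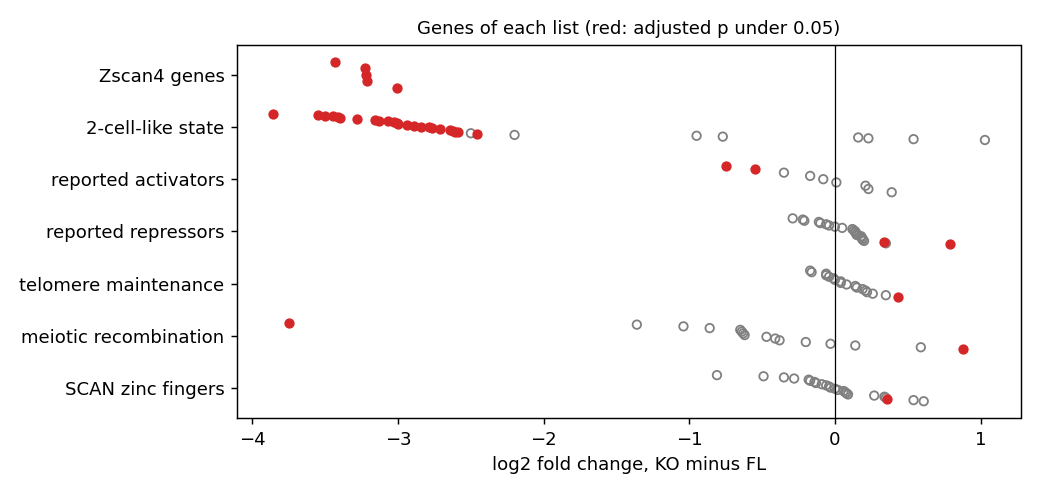
Log2 fold change, KO minus FL, of the Zscan4 rows and of each tested gene of the lists shown. The lists are the 2-cell-like state, activators, repressors, telomere maintenance, meiotic recombination and SCAN zinc fingers. Each point is 1 gene, and filled points passed the edgeR test at an adjusted p of 0.05. The 2-cell-like list, with a median of -2.82, and the Zscan4 rows, with a median of -3.22, lie lowest. The medians of the other lists shown lie between -0.55 and 0.14.

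Genes known to switch Zscan4 on, such as the partner proteins Dppa2 and Dppa4, had log2 fold changes between KO and FL of -0.75 to 0.39. Of 9 tested activators, 2 fell and 0 rose, with a median of -0.08, against 3.18% of all genes called lower and 1.85% called higher. Dppa2, which binds promoters of 2-cell genes, had 84.7 ± 6.95 CPM in FL and 58 ± 6.88 in KO cells (-0.55 ± 0.11, adjusted p = 0.0389 by edgeR). Its call was lost without any 1 of the 6 libraries. Tet2, an enzyme that oxidises 5-methylcytosine, had 190 ± 7.43 and 113 ± 20.9 CPM (-0.75 ± 0.15, adjusted p = 0.0361 by edgeR), and its call was lost without FL library 1 or 2 or KO library 3 or 4. Dppa4 (0.39 ± 0.11, adjusted p = 0.0918) and Tbx3 (0.01 ± 0.12, adjusted p = 0.969) did not pass. Dux, the 2-cell transcription factor that activates Zscan4, was not analysed here.

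Of 23 repressors of the 2-cell-like state, 2 rose and 0 fell, with a median of 0.14, against 1.85% of all genes called higher and 3.18% called lower. L3mbtl2, a Polycomb group protein, had 200 ± 1.72 CPM in FL and 253 ± 3.63 in KO cells (0.34 ± 0.06, adjusted p = 0.019 by edgeR). Dnmt3b, a de novo DNA methyltransferase, had 288 ± 30.9 and 498 ± 95.9 CPM (0.79 ± 0.18, adjusted p = 0.0447 by edgeR). L3mbtl2 lost its call without FL library 1 or 2 or KO library 3 or 4, and Dnmt3b without any 1 library other than KO library 1. In the FL minus BRE comparison, which shares the FL libraries, Dppa2 was higher in FL (1.69 ± 0.20, adjusted p = 1.38e-05), as was Dnmt3b (1.42 ± 0.27, adjusted p = 0.000644), whereas Tet2 (-0.77 ± 0.22, adjusted p = 0.00918) and Tbx3 (-0.79 ± 0.29, adjusted p = 0.034 by edgeR) were lower. Of the 33 tested genes of the 2-cell-like list, 29 were higher and 2 lower in FL there, where 28.7% and 26.3% of all genes were.

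For genes of telomere maintenance and meiosis and for relatives of Zscan4, there were 1 or 2 calls a list, where 5.03% of all genes were called in either direction, so these counts are near the background. Of 18 telomere maintenance genes, 1 rose between FL and KO (Rtel1, a helicase that unwinds telomere loops, 0.43 ± 0.07, adjusted p = 0.019 by edgeR) and 0 fell. Rtel1 lost its call without FL library 1 or 2 or KO library 3 or 4. Of 16 tested genes of meiosis and meiotic recombination, 1 fell and 1 rose, with a median of -0.55. Stra8, which starts meiosis in germ cells, had 9.44 ± 4.04 CPM in FL and 0.699 ± 0.221 in KO cells (-3.75 ± 0.33, adjusted p = 0.00607 by edgeR). Tex15, needed for meiotic repair of DNA breaks, had 47.3 ± 1.94 and 86.7 ± 6.16 CPM (0.88 ± 0.09, adjusted p = 0.00641 by edgeR). Of 24 tested relatives of Zscan4 with a SCAN domain, 0 fell and 1 rose (Zkscan17, 0.36 ± 0.08, adjusted p = 0.0421 by edgeR, lost without any 1 library). Of 8 stem cell markers, Nanog fell (637 ± 16.2 and 419 ± 13.1 CPM, -0.60 ± 0.06, adjusted p = 0.00613 by edgeR) and the other 7 did not pass.

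Across all 12 libraries, the genes whose log2 CPM was most like that of the summed Zscan4 counts, of 17107 compared, were Dppa2 (Pearson r = 0.982), Gm12800 (0.982), Zfp518b (0.981), Usp17lc (0.978), Gm12794 (0.976), Chit1 (0.975), Gm27167 (0.972) and Usp17lb (0.972). The likeness is a description: the points share the culture, strain and genotype that set the groups, and 363 genes had an r above 0.9. The levels behind it differ in scale. Dppa2 ran from 16.4 to 33.3 CPM in BRE libraries and 50.6 to 65 in KO libraries, with a mean of 84.7 in FL. Gm12800 ran from 0 to 0.214 and from 0.395 to 1.71 CPM, with a mean of 11.1 in FL. Over the 6 FL and KO libraries, the most alike were Tmem92, a transmembrane protein (0.997), Gm8994 (0.996), Spz1, a germ cell transcription factor (0.995), Spire1, an actin nucleator (0.994), and Gm11543 (0.994). Between single Zscan4 rows, r over these 6 libraries ran from 0.938 (Zscan4e with Zscan4f) to 0.997 (Zscan4c with Zscan4f). Values of r over these 6 libraries mostly restate the gap between FL and KO, and the copies may share reads. They are no separate evidence that the rows vary together.

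The genes nearest to the cluster were too low to test. The 6 nearest counted genes on each side, mostly vomeronasal receptor genes and pseudogenes, lay 39.9 to 158 kb to the left and 251 to 472 kb to the right. They had at most 4 counts in any library and were not tested. The nearest tested genes, chosen after the counts of the closer ones were seen, lay 299 kb, 3490 kb and 3580 kb to the left (Zik1, Clcn4 and Zfp772) and 1010 kb, 1080 kb and 1370 kb to the right (Zfp551, Zfp606 and Zscan18), so most are not close neighbours. Examples are Zik1, 299 kb to the left (21.6 CPM in FL, 21 in KO; -0.04 ± 0.09, adjusted p = 0.849), and Zfp551, 1010 kb to the right (3.1 and 3.36 CPM; 0.12 ± 0.19, adjusted p = 0.758 by edgeR). Of these 6 genes 0 were called, with adjusted p of 0.485 to 0.933, against 5.03% of all genes tested, a share at which 0 of 6 says little.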

How the data were processed

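Per the submitters' processing notes, the tools were STAR 2.4.1d, featureCounts 1.4.6, CASAVA 1.8.2, DESeq2 1.6.3 and FastQC 0.11.3, and the builds mm10 and GRCm38.p4. The sources used here do not give the strand setting, the read length or the treatment of multi-mapped reads. The authors deposited raw counts per gene, used as they stand, and a signal table of TPM values, which equal (count + 1) over a gene length, scaled per library.

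Counts were tested with edgeR 4.0.16 in R 4.3.3 (TMM, filterByExpr with a minimum count of 10 and a total of 15, quasi-likelihood test, Benjamini-Hochberg adjustment over all genes tested, threshold 0.05) for KO minus FL, BRE-positive minus BRE-negative with the pair as a block, and FL minus BRE over all 12 libraries. The series' design states the BRE pairs: deviations from the group means correlated at 0.529 to 0.711 within pairs and at -0.546 to 0.122 between them. KO libraries of 1 parental line are not independent, and p-values measure only the spread between these libraries. Alternatives used DESeq2 1.42.0, limma 3.58.1 on log2(TPM + 1) or log2(TPM + 0.1), other scalings and filters, blocks and left-out libraries. Scripts were tested on simulated data. Transcripts (GENCODE M21) were aligned with mafft 7.526, and promoters came from RefSeq. Wilson and Poisson intervals (95%) cover counting error alone.

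The members and gene lists were chosen with earlier results of these data known. Named are the Zscan4 genes, Smad1, Smad5, Dux, Dppa2, Dppa4, Tbx3, Tet2 and Dnmt3b, up to 3 called genes per list with the smallest p, the 8 genes most like the summed Zscan4 level over 12 libraries and the 5 over 6, and neighbours. The neighbours' rule was extended to tested genes after the data were seen.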

Additional observations from a re-analysis of the deposited data

Results flagged for a closer look

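Zscan4d was the 1 quantity of 6 (5 rows and their sum) in the KO group with a library far from the others. KO library 2 had 0.65 CPM, while the other KO libraries had 3.56 to 4 CPM. The gap to the nearest library was 0.869 of the group's range, above Dixon's 95% critical value for 4 samples. Chance flags about 1 in 20 groups, and the 6 quantities share reads and libraries. Without KO library 2, all 5 Zscan4 rows were still called lower in KO by edgeR.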

How the results depend on the processing

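The direction of the 5 Zscan4 rows between KO and FL was the same in every alternative run; their calls and sizes were not. With limma on log2(TPM + 1), where the pseudocount shrinks low values, the log2 fold change was -0.77 for Zscan4f (-3.01 in edgeR), -1.63 for Zscan4e (-3.23), -2.33 for Zscan4b (-3.43), -2.72 for Zscan4c (-3.21) and -2.87 for Zscan4d (-3.22). With no filter Zscan4d was not called there (adjusted p = 0.0556). On log2(TPM + 0.1) the values ran from -3.43 (Zscan4d) to -2.25 (Zscan4f). Of 5 rows called, limma on log2(TPM + 0.1) called 2, the fit blocked on replicate number 0, and fits without 1 library 0 to 5. The replicate numbers are not a pairing by design: deviations correlated at 0.263 for number 1 and -0.424 for number 2. Those of FL library 1 correlated at 0.263 and 0.424 with KO libraries 1 and 2, and at -0.407 and -0.363 with KO libraries 3 and 4. With 2 FL libraries, the values for FL library 2 are the same with the opposite sign. The replicate block fit held all 6 libraries, but KO libraries 3 and 4, each alone in its block, added nothing to the contrast. In that fit 0 genes were called (2589 at an unadjusted p under 0.05). The Zscan4 rows had log2 fold changes of -4.44 to -3.09 and adjusted p of 0.0689 to 0.085 there (edgeR). The 6 possible assignments of KO libraries to parental lines, as a block, called 29 of 30 rows, at -3.49 to -3.01. Over all genes, the assignment of KO libraries 1 and 2 to the line of FL library 1 called 2927, and the others 250 to 498. Which assignment is right was not tested.

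The count of all genes called between KO and FL, 801, became 1498 with DESeq2, 136 with limma on log2(TPM + 0.1), 360 on log2(TPM + 1), 198 on log2(TPM + 1) with a mean TPM of at least 1, 250, 325, 380, 419, 498 or 2927 with a line block, and 0 to 857 without 1 library. For FL minus BRE, limma on log2(TPM + 1) gave 0.89 (Zscan4f) to 4.3 (Zscan4d), against 5.25 to 8.42 in edgeR. The FL minus BRE count of called Zscan4 rows fell from 5 to 3 with limma at a mean TPM of at least 1, where 3 rows were tested. The count of genes called between BRE groups, 459, became 288 with DESeq2, 42 with limma on log2(TPM + 0.1), 0 on log2(TPM + 1) with a filter and without (2679 and 4189 at an unadjusted p under 0.05), 1010 with no filter, 0 with no replicate block (343 unadjusted), 0 with all 12 libraries and no replicate block (516 unadjusted), and 200 to 2225 without 1 replicate pair. The ratio of summed levels, 9.32, ran from 9.19 to 9.71 over 7 settings. Of the 8 genes most like Zscan4 over 12 libraries, 0 were among the 8 most alike over 6. The cause of these changes was not tested. Depth limits the BRE comparison, with 62 Zscan4 counts in 6 libraries.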
